A study of Homo sapiens with 42 samples.

Results

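The DUSP phosphatases of MAPK feedback, a set of 9 genes (DUSP1, DUSP2, DUSP4, DUSP5, DUSP6, DUSP7, DUSP8, DUSP10 and DUSP16), were followed by the chromatin accessibility of every region assigned to them. A region belonged to the set when the deposited annotation of its cell line named one of the 9 genes, whether it lay in a promoter, an intron, an exon, a 3′ UTR or between genes. The annotations of 4 cell lines held 242490 regions of 502 bases, and 240 of them carried a DUSP symbol. PC9 had 72, H1975 had 88, HCC2935 had 50 and HCC827 had 30. By class, 102 were promoter regions (within 3 kb of a gene start), 78 were distal intergenic, 40 intronic, 15 exonic and 5 in a 3′ UTR. Distances below are from the start given in the annotation. For some regions of DUSP4, DUSP5, DUSP10 and DUSP16 that is an alternative start of the gene. DUSP5 had the most (55), followed by DUSP1 (47), DUSP4 (31), DUSP7 (30), DUSP10 (22), DUSP16 (21), DUSP6 (20) and DUSP2 (14), while DUSP8 had none in any line. Matched by position between lines, the 240 regions fell on 110 loci, of which 23 were present in all 4 lines, 17 in 3, 27 in 2 and 43 in 1.

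The libraries came from 4 human lung adenocarcinoma cell lines that carry an activating EGFR mutation, each in triplicate, giving 42 libraries in 14 groups. Control cells were grown drug free for 21 days and then given DMSO, the solvent, for 3 days. Drug-tolerant persister cells (DTP) were the cells that outlasted 24 days of osimertinib, an EGFR inhibitor, at 500 nM. Combination-treated cells (combo) received osimertinib at 500 nM for 21 days and then AZD5153 at 150 nM for 3 days, and the labels do not say whether osimertinib stayed on during those last days. A further arm, present for PC9 and H1975 alone, was drug free for 21 days and then given AZD5153 at 150 nM for 3 days. Each line is 1 culture model, persisters are the part of the culture that survived, and nothing in the labels ties the 3 libraries of a group to separate cultures, so p-values measure the spread between these libraries, which may be technical. Each DTP library was also compared with both the control and the combo libraries, and these comparisons share samples.

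Dual-specificity phosphatases of this family remove both the threonine and the tyrosine phosphate that switch on a MAP kinase. Several are themselves switched on by the kinase they act on, so their genes report on the activity of the pathway and damp it. DUSP1, DUSP2, DUSP4 and DUSP5 encode inducible nuclear enzymes, DUSP6 and DUSP7 encode cytoplasmic enzymes that prefer ERK, and DUSP8, DUSP10 and DUSP16 encode enzymes directed at JNK and p38. In EGFR-mutant lung cancer cells DUSP6 is a familiar readout of ERK signalling. Accessibility is neither transcript nor protein, and neither was measured here.

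Promoter sequences of 3 members are given because their lead promoter regions, meaning the promoter region with the highest mean signal of each gene in a line, covered the annotated start and moved in different directions below. They are RefSeq windows on GRCh38.p14 running from 250 bases before to 50 bases after the gene start, all on the minus strand and written 5′ to 3′. The DUSP6 window is chr12:89352452-89352751, the DUSP1 window chr5:172771146-172771445 and the DUSP10 window chr1:221742040-221742339. Capitals mark the palindromic cyclic AMP response element TGACGTCA.
DUSP6: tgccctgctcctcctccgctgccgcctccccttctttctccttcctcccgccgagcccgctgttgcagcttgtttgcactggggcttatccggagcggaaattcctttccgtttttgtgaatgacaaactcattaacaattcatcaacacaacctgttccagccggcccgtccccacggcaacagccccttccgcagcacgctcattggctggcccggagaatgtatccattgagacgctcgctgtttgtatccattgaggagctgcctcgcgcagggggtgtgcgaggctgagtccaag
DUSP1: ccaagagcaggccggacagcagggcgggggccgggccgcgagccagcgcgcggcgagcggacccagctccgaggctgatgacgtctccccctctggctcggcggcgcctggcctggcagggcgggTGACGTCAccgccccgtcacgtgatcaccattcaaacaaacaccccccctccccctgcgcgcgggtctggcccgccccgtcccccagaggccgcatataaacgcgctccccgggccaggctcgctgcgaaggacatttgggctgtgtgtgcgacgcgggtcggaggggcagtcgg
DUSP10: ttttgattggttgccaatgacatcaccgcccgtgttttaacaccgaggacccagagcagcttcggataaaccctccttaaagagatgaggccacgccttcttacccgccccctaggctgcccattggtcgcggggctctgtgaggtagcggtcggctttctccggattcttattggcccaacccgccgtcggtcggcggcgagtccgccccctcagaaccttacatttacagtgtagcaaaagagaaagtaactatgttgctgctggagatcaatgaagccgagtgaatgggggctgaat
The lead promoter region overlapped 300 of the 300 bases of the DUSP1 and DUSP10 windows in every line, and 283 (PC9) or 300 (the other lines) bases of the DUSP6 window. The DUSP1 window held 1 response element, at bases 126 to 133, that is from 125 bases before the start. RefSeq windows were at hand for 7 of the 9 genes, not for DUSP4 and DUSP5, and 649 of all 35116 promoter windows (1.85%) held the same 8 letters. DUSP8, which had no region in the deposited tables, held the element at 2 places, from bases 133 and 177 of its window. An AP-1 site (TGACTCA, found in 4.95% of all windows on either strand) and an ETS site (CCGGAAG, in 10.3%) were present in none of the DUSP windows, which says no more than that these letters are absent from these windows. GC content was 58.3% in the DUSP6 window and 55.0% in the DUSP10 window, against 58.7% in the median promoter, and 73.3% (DUSP1, DUSP16), 75.0% (DUSP2), 78.0% (DUSP7) and 78.3% (DUSP8) in the others.

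Library depth ranged from 3989287 to 5193390 counted reads (PC9), 6200672 to 10062505 (H1975), 3968690 to 8066287 (HCC2935) and 1724680 to 4242868 (HCC827). Signal is given as CPM, the count of a region scaled to a common normalised library size. In PC9 the libraries of a group differed by no more than counting noise (variance ratio 0.950 to 1.03 for pairs of libraries), and H1975 was close to that (0.963 to 1.27), so p-values there may measure technical spread alone. HCC827 stood apart, with ratios from 1.19 to 9.23, and control replicate 3 was the highest of its group at all 8 lead DUSP promoters. Promoters of the epithelial markers EPCAM, CDH1, KRT7, KRT8, KRT18, KRT19 and NKX2-1 were accessible in all lines (3.90 to 89.0 CPM over all 8 markers), with NAPSA missing in HCC827. Of 7 markers of leukocytes, endothelium and fibroblasts, 1 to 3 had a promoter region in a line (0.913 to 29.0 CPM), and PTPRC, DCN and LUM had none in any line. A peak called by the authors overlapped the lead DUSP promoter in 330 of 336 library and gene pairs, and the 6 without one were all HCC827 libraries.

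In untreated cells the DUSP10 promoter was among the most accessible of the set and DUSP2 and DUSP4 were among the 3 least. DUSP5 was the third of these in PC9, HCC827 and HCC2935, and in H1975 it was DUSP16, whose libraries overlapped those of DUSP5. DUSP10 averaged 57.1 ± 4.94 CPM in H1975, 66.2 ± 19.0 in HCC827 and 58.5 ± 1.66 in HCC2935 (SD, n = 3), the highest of the set in each, and 48.9 ± 2.65 in PC9, where DUSP7 was highest at 52.4 ± 4.39. Ranked by its mean over all libraries among the lead promoters of every gene in a line, DUSP10 stood at percentiles 95.3 to 97.1, whereas DUSP2 stood at 16.8 to 45.0. DUSP6 averaged 43.6 ± 1.22 CPM (PC9), 30.6 ± 3.32 (H1975), 34.8 ± 3.39 (HCC2935) and 46.8 ± 21.2 (HCC827). Down the order, neighbours overlapped for DUSP7 with DUSP10, DUSP10 with DUSP16, and DUSP2 with DUSP4 in PC9, for DUSP6 with DUSP1, DUSP5 with DUSP16, and DUSP4 with DUSP2 in H1975, for DUSP1 with DUSP16 and DUSP5 with DUSP4 in HCC2935, and for every pair in HCC827. The lead DUSP2 promoter was a region 2.9 to 3.0 kb upstream of the start in PC9, H1975 and HCC827 but lay on the start in HCC2935, so its level is not set between lines.

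**Figure D1:**
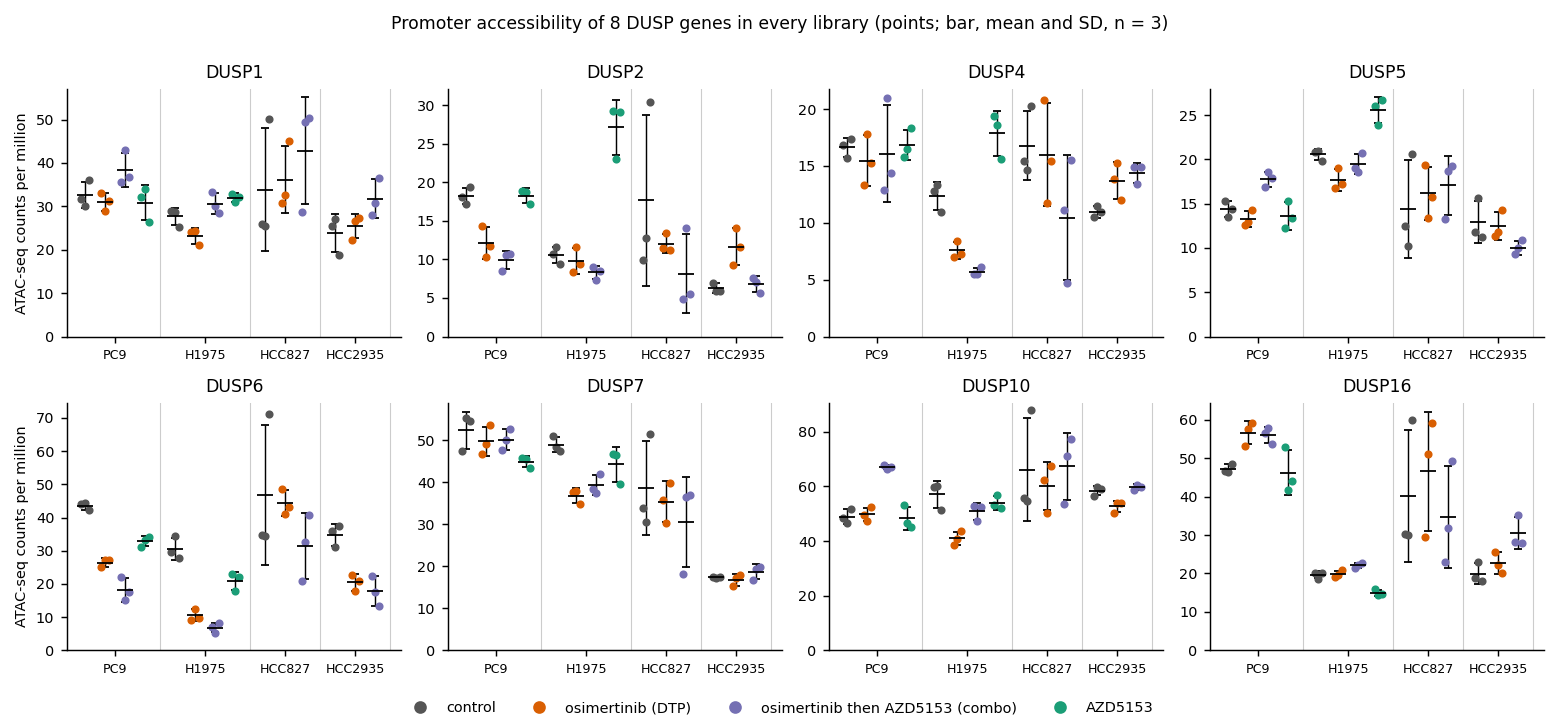
Accessibility of the lead promoter of each DUSP gene, in CPM, in every library of the 14 groups, one panel per gene. Points are libraries, and the dash and error bar are the group mean and SD (n = 3). The DUSP6 points fall from control to DTP in PC9, H1975 and HCC2935 with no overlap, whereas the 3 control libraries of HCC827 spread from 34.3 to 71.2 CPM.

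Comparing DTP with control cells asks which DUSP regions opened or closed in cells that survived osimertinib. Lower regions outnumbered higher ones in every line with calls, and most of them lay outside promoters. In PC9, 30 of 72 regions were called at an adjusted p under 0.05, 11 higher and 19 lower, against 38% of all annotated regions (16.4% higher, 21.7% lower). In H1975, 58 of 88 were called, 18 higher and 40 lower, against 62.6% (25.8% higher, 36.8% lower). In HCC2935, 28 of 50 were called, 8 higher and 20 lower, against 45.1% (23.9% higher, 21.2% lower). The share called in either direction was within a few points of the background in PC9 and H1975 and above it in HCC2935, and nothing particular to the set is read from it. The median log2 fold change of DUSP regions was -0.15 in PC9, -0.26 in H1975 and -0.15 in HCC2935, beside -0.03, -0.07 and 0.07 over annotated regions.

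In HCC827 no DUSP region of 30 passed (0.0458% of annotated regions did, 0.0327% higher and 0.0131% lower), with 7 at an unadjusted p under 0.05, 0 under DESeq2 and 0 under limma voom. Same-numbered HCC827 libraries departed from their group means alike, and with the number as a block 4 regions were lower (5.24% of annotated regions were called). With the 3 libraries of a group summed to 1 and the spread taken from HCC2935, 21 PC9 regions (21.0% of annotated regions), 49 H1975 regions (43.3%), 24 HCC2935 regions (35.8%) and 7 HCC827 regions (12.5%) were called. HCC827 libraries of a group differed by more than those of HCC2935, with variance ratios up to 9.23 against 1.82, so this spread is too small for HCC827 and its 7 calls are not read as results. Libraries of control and DTP cells did not overlap at 38 of the 72 PC9 regions (47.0% of annotated regions), 61 of the 88 H1975 regions (65.4%), 31 of the 50 HCC2935 regions (53.8%) and 8 of the 30 HCC827 regions (16.8%).

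Outside promoters, 14 of 38 DUSP regions were lower and 7 higher in PC9 (29.2% and 17.9% of annotated regions outside promoters), with 5 lower and 4 higher among 34 promoter regions (14.6% and 14.9% of annotated promoter regions). In H1975 30 were lower and 11 higher of 54 outside promoters (45.5% and 25.5%), and 10 lower and 7 higher of 34 in promoters (27.0% and 26.1%). In HCC2935 13 were lower and 6 higher of 30 (26.4% and 25.8%), and 7 lower and 2 higher of 20 (14.8% and 21.5%). Annotated regions as a whole were thus also lower more often outside promoters, and the difference between the classes was not tested.

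**Figure D2:**
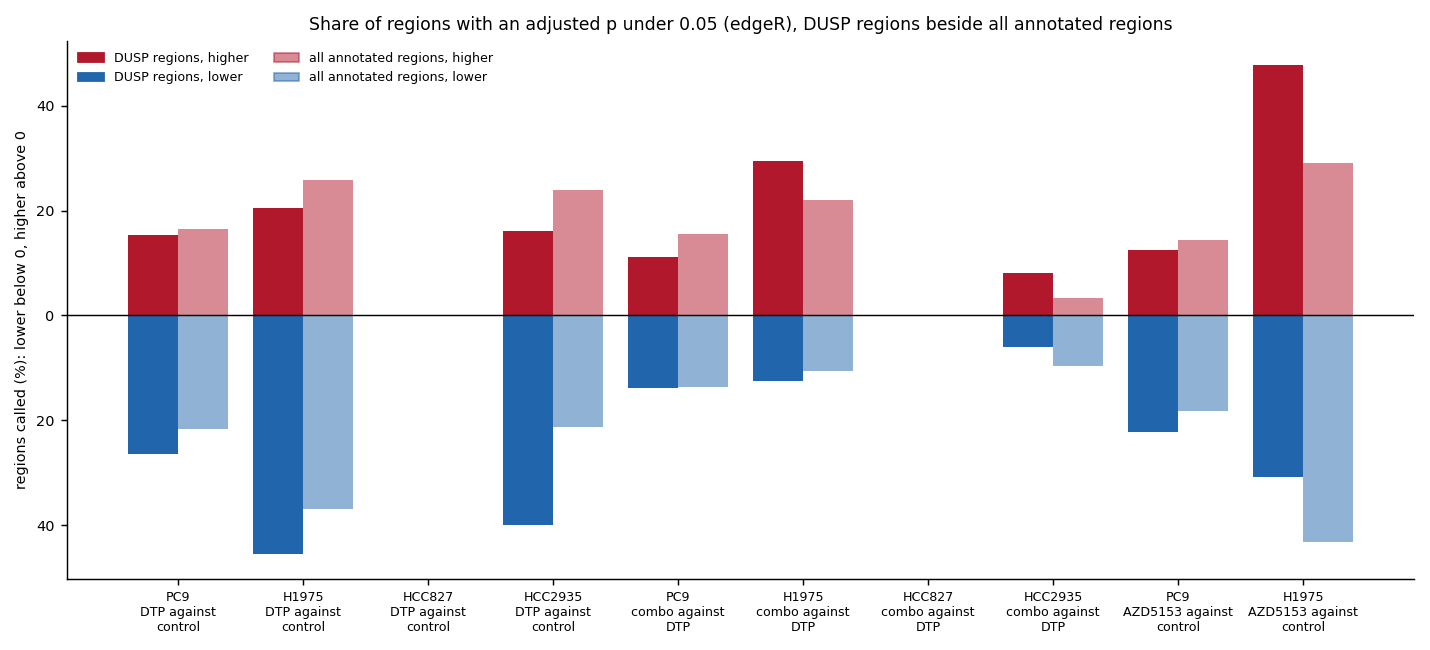
Share of regions called higher or lower at an adjusted p under 0.05 in each comparison and cell line, for DUSP regions beside all annotated regions, in percent. In DTP against control, 19 of 72 DUSP regions were lower in PC9, 40 of 88 in H1975 and 20 of 50 in HCC2935, and none in HCC827.

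DUSP6, whose product dephosphorylates ERK in the cytoplasm, lost accessibility at its promoter in 3 lines. In PC9 the promoter region (chr12:89352469-89352970) held 44.2, 44.4 and 42.2 CPM in control and 25.0, 27.1 and 27.3 CPM in DTP libraries (log2 fold change -0.72 ± 0.10, adjusted p = 2.06e-10). In H1975 it held 29.5, 34.3 and 27.9 CPM in control and 9.21, 12.6 and 9.74 in DTP (log2 fold change -1.53 ± 0.11, adjusted p = 2.81e-32). In HCC2935 it held 35.8, 31.0 and 37.6 and 22.8, 17.9 and 20.8 (log2 fold change -0.77 ± 0.15, adjusted p = 4.55e-05). Every DTP library was below every control library in these lines, and with the 3 libraries of a group summed the adjusted p was 0.0133, 4.96e-10 and 0.00504. In HCC827 the values were 34.9, 34.3 and 71.2 in control and 48.7, 41.1 and 43.1 in DTP, overlapping groups with a log2 fold change of -0.09 ± 0.35 (adjusted p = 1, and 0.969 with the replicate block). The size of the loss differed between PC9, H1975 and HCC2935 (adjusted p = 9.32e-06, edgeR joint fit over matched regions).

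A region 23.2 kb upstream of the DUSP6 start, in an intron of a longer transcript without a gene symbol in the annotation, was more accessible than the promoter. In H1975 (chr12:89375735-89376236) it fell from 62.2, 63.8 and 56.1 CPM in control to 20.9, 25.4 and 24.5 in DTP (log2 fold change -1.36 ± 0.08, adjusted p = 6.91e-43). In HCC2935 it fell from 63.8, 51.7 and 46.3 to 37.2, 32.6 and 34.7 (log2 fold change -0.64 ± 0.12, adjusted p = 2.1e-05). In HCC827 it was the strongest DUSP region outside promoters, with 75.7, 71.2 and 104 in control and 43.7, 38.6 and 72.0 in DTP. The highest HCC827 DTP library overlapped the control range there, and the log2 fold change of -0.69 ± 0.44 did not pass (adjusted p = 0.905, and 0.0866 with the replicate block). The PC9 annotation listed no region at this place. Next to it in HCC2935 an exonic region 19.1 kb upstream fell from 7.64, 6.50 and 4.07 CPM to 0.760, 0.662 and 0.572 (log2 fold change -3.18 ± 0.41, adjusted p = 3.38e-08). Summed over all its regions, DUSP6 changed in DTP by -0.49 ± 0.07 (PC9), -1.18 ± 0.06 (H1975) and -0.78 ± 0.08 (HCC2935) on the log2 scale, with adjusted p of 4.54e-10, 3.91e-42 and 1.54e-08.

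**Figure D3:**
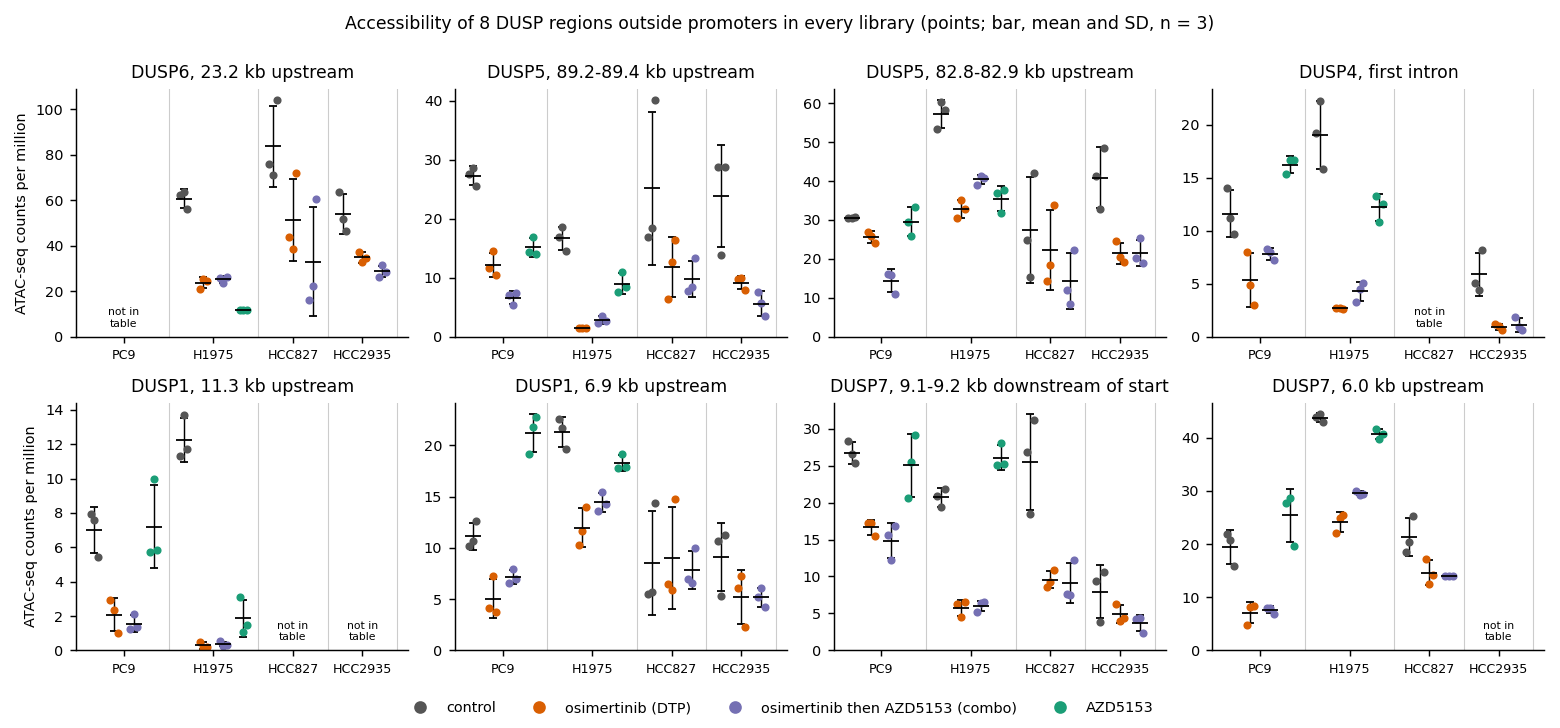
Accessibility (CPM) in every library of 8 DUSP regions outside promoters, one panel per region with its distance from the gene start. Points are libraries, and the dash and error bar are the group mean and SD (n = 3). The region 23.2 kb upstream of DUSP6 falls from 56.1 to 63.8 CPM in H1975 control libraries to 20.9 to 25.4 in DTP and 11.5 to 11.7 under AZD5153 alone.

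DUSP7, the close cytoplasmic relative of DUSP6, lost flanking regions in PC9 and H1975, and at its promoter the lines differed. Its lead promoter region, 0.6 kb upstream of the start, held 47.3, 55.3 and 54.6 CPM in PC9 control and 46.7, 49.0 and 53.6 in DTP libraries, overlapping groups (log2 fold change -0.09 ± 0.08, adjusted p = 0.465). In H1975 it was lower in DTP, 37.6, 38 and 34.8 against 50.9, 48.4 and 47.5 CPM (log2 fold change -0.41 ± 0.07, adjusted p = 4.46e-07, and 0.102 with libraries summed), and in HCC2935 the log2 fold change was -0.05 ± 0.16 (adjusted p = 0.829). The test of a difference between the 3 lines passed (joint adjusted p = 0.0259). A distal region 6.0 kb upstream fell in PC9 from 21.9, 20.8 and 15.9 to 4.86, 8.25 and 8.26 CPM (log2 fold change -1.44 ± 0.18, adjusted p = 4.5e-14). In H1975 it fell from 43.9, 44.5 and 43.0 to 22.0, 25.0 and 25.4 (log2 fold change -0.86 ± 0.08, adjusted p = 2.03e-20).

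A region 9.1 to 9.2 kb downstream of the DUSP7 start, past the end of the gene and in an exon of another transcript, was lower in DTP in 3 lines. It went from 20.9, 19.4 and 21.8 to 6.27, 4.54 and 6.49 CPM in H1975 (log2 fold change -1.84 ± 0.13, adjusted p = 1.79e-31). The PC9 values were 28.3, 26.6 and 25.3 and 17.3, 17.3 and 15.5 (log2 fold change -0.67 ± 0.13, adjusted p = 4.48e-06). In HCC2935 the groups overlapped, with 9.39, 3.84 and 10.6 and 6.27, 3.97 and 4.39 CPM (log2 fold change -0.72 ± 0.28, adjusted p = 0.0404). In HCC827 it was one of the 4 regions called with the replicate block, from 26.9, 18.4 and 31.2 to 8.60, 9.23 and 10.9 CPM with no overlap (block log2 fold change -1.42, adjusted p = 0.00857). The opposite direction was seen 42.5 kb upstream, in an intron of the neighbouring gene POC1A. There PC9 rose from 14.6, 7.61 and 11.7 to 22.8, 23.7 and 21.8 CPM (log2 fold change 1.04 ± 0.15, adjusted p = 3.69e-10). It was called higher in H1975 as well (log2 fold change 1.59), the value of 0.36 in HCC2935 did not pass, and the 3 lines differed (joint adjusted p = 0.000757).

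DUSP5, an inducible nuclear phosphatase specific for ERK, lost accessibility mainly far from its promoter. In H1975 16 of its 25 regions were lower and 3 higher, in HCC2935 7 of 9 were lower and 1 higher, and in PC9 5 of 13 were lower and 2 higher. The lead promoter region over the start passed in no line, with log2 fold changes of -0.11 ± 0.16 (PC9), -0.21 ± 0.10 (H1975), -0.04 ± 0.19 (HCC2935) and 0.15 ± 0.37 (HCC827). A distal intergenic region 89.2 to 89.4 kb upstream fell in H1975 from 16.9, 18.6 and 14.6 CPM to 1.41, 1.47 and 1.46 (log2 fold change -3.51 ± 0.19, adjusted p = 9.12e-46). It fell in PC9 from 27.6, 28.6 and 25.5 to 11.7, 14.4 and 10.5 (log2 fold change -1.16 ± 0.14, adjusted p = 3.22e-14). In HCC2935 the values were 28.8, 13.9 and 28.8 and 9.69, 9.92 and 7.82 (log2 fold change -1.39 ± 0.21, adjusted p = 9.89e-07). All DTP libraries were below all control libraries in these 3 lines and in HCC827, where the values were 16.9, 18.4 and 40.1 and 6.45, 12.6 and 16.4 (adjusted p = 0.609, and 0.0418 with the replicate block). The loss differed between PC9, H1975 and HCC2935 (joint adjusted p = 1.17e-11).

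Close by, 86.3 to 86.5 kb upstream, another region moved in opposite directions. In H1975 it rose from 1.08, 1.35 and 0.809 to 9.47, 11.5 and 8.73 CPM (log2 fold change 3.18 ± 0.23, adjusted p = 1.16e-29). In HCC2935 it fell from 21.6, 17.1 and 24.7 to 15.2, 15.9 and 14.1 (log2 fold change -0.49 ± 0.16, adjusted p = 0.0156, and 0.118 with libraries summed), and the difference between lines was the largest by p among matched DUSP regions (joint adjusted p = 1.11e-20). The most accessible DUSP5 region, 82.8 to 82.9 kb upstream, fell in H1975 from 53.3, 60.4 and 58.2 to 30.6, 35.0 and 32.7 CPM (log2 fold change -0.81 ± 0.07, adjusted p = 9.11e-22). In HCC2935 it fell from 41.3, 32.8 and 48.5 to 24.5, 20.5 and 19.3 (log2 fold change -0.93 ± 0.14, adjusted p = 8.42e-07), while in PC9 the change of -0.26 ± 0.11 did not pass (adjusted p = 0.0705). HCC2935 also opened a region 13.9 kb upstream, in an intron of another transcript, from 0.874, 0.591 and 0.626 to 6.08, 5.29 and 5.92 CPM. Its control libraries held 8 counts in all and its DTP libraries 95, a depth-corrected ratio of 8.01 with a 95% counting interval of 3.90 to 19.1. A region 1.1 kb upstream of a second start fell there too, from 9.83, 13.9 and 8.14 to 4.56, 4.14 and 5.34 CPM (log2 fold change -1.18 ± 0.25, adjusted p = 0.000186).

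DUSP1, the immediate-early phosphatase that acts on p38, JNK and ERK, changed on its flanks and at other promoter regions, and hardly at its lead promoter. A promoter region with losses lies inside the gene within 1 kb of the start (chr5:172770485-172770986 in H1975). It was lower in H1975 and HCC2935 (log2 fold change -1.68 and -0.69) and changed by -0.02 in PC9, and these lines differed (joint adjusted p = 3.97e-10). In HCC827 its value was -1.44, and no DUSP region passed there. Another promoter region, 1 to 2 kb from the start, was called higher in H1975 and HCC2935 (log2 fold change 0.41 and 0.75). Its value in PC9 was -0.31, and the lines differed (joint adjusted p = 0.000135). The lead promoter region, which covers the response element shown above, held 31.8, 30.2 and 36.0 CPM in PC9 control and 33.0, 28.9 and 31.3 in DTP libraries (log2 fold change -0.07 ± 0.11, adjusted p = 0.647). H1975 was slightly lower, 24.2, 24.3 and 21.0 against 28.9, 28.8 and 25.3 CPM (log2 fold change -0.26 ± 0.09, adjusted p = 0.0115, and 0.336 with libraries summed). A distal region 11.3 kb upstream all but closed in H1975 DTP cells. It went from 11.3, 13.7 and 11.7 CPM (73, 102 and 87 counts) to 0.512, 0.113 and 0.224 CPM (4, 1 and 2 counts), the largest loss of any DUSP region with a log2 fold change of -5.41 ± 0.30 (adjusted p = 7.02e-45). From the summed counts the control level was 44.9 times the DTP level, with a 95% counting interval of 21.5 to 113. PC9 fell at the same place from 7.94, 7.61 and 5.46 to 2.92, 2.32 and 1.00 CPM (log2 fold change -1.72 ± 0.31, adjusted p = 4.91e-07).

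A region 6.9 kb upstream of DUSP1 was lower in DTP in PC9 (10.2, 10.6 and 12.6 against 4.13, 7.22 and 3.75 CPM), in H1975 (22.6, 21.7 and 19.7 against 10.2, 11.7 and 14) and in HCC2935 (10.7, 5.32 and 11.3 against 6.08, 7.28 and 2.29). The groups overlapped in HCC2935, and the log2 fold changes of -1.16, -0.82 and -0.79 did not pass the test of a difference between lines (joint adjusted p = 0.647). On the other side of the start, H1975 opened 4 regions 2.1 to 4.6 kb downstream, and the one at 4.6 kb was also called higher in HCC2935 (log2 fold change 1.49). The one at 2.1 kb is classed as a promoter region. In H1975 the region 4.6 kb downstream rose from 2.94, 2.29 and 1.75 to 12.4, 16.1 and 12.2 CPM (log2 fold change 2.56 ± 0.18, adjusted p = 1.18e-30). The one 3.8 kb downstream rose there from 0.619, 0.269 and 0.539 to 3.20, 5.33 and 2.46 (log2 fold change 2.93 ± 0.37, adjusted p = 2e-12). The latter rests on 10 counts in the control libraries against 94 in DTP, a ratio of 7.84 with a counting interval of 4.08 to 16.9. The strongest region outside promoters in PC9, H1975 and HCC2935 lay 5.4 to 5.5 kb downstream of the DUSP1 start, at 49.4 ± 2.52, 36.2 ± 1.70 and 40.1 ± 5.75 CPM in control cells (SD, n = 3). It rose in H1975 DTP cells to 45.9, 47.1 and 43.0 CPM (log2 fold change 0.32 ± 0.07, adjusted p = 8.33e-05) and did not pass in the others.

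DUSP4, an inducible nuclear phosphatase for ERK and JNK, lost 1 intronic region in 3 lines. The region lies in the first intron, 7.0 to 7.1 kb downstream of an alternative start. It fell in H1975 from 19.2, 22.2 and 15.8 to 2.69, 2.72 and 2.57 CPM (log2 fold change -2.83 ± 0.16, adjusted p = 6.24e-43). In HCC2935 it fell from 5.02, 4.43 and 8.14 to 1.14, 0.992 and 0.572 (log2 fold change -2.64 ± 0.40, adjusted p = 1.18e-06). In PC9 it fell from 14, 11.2 and 9.67 to 8.02, 4.90 and 3.00 (log2 fold change -1.09 ± 0.21, adjusted p = 5.72e-06). No library overlapped, and the loss differed between the lines (joint adjusted p = 5.9e-06). The lead promoter fell only in H1975, from 12.8, 13.3 and 10.9 to 7.04, 8.39 and 7.28 CPM (log2 fold change -0.70 ± 0.14, adjusted p = 4.18e-06), while the log2 fold changes of -0.11 (PC9), -0.07 (HCC827) and 0.33 (HCC2935) did not pass. Regions 28.1 and 31.7 kb downstream rose in HCC2935, from 1.53, 2.36 and 2.50 to 7.22, 5.29 and 7.63 CPM and from 2.84, 1.48 and 0.626 to 5.89, 5.46 and 5.34 CPM. Their log2 fold changes were 1.68 ± 0.33 and 1.63 ± 0.35 (adjusted p = 7.49e-05 and 0.00026). The surrounding 10 Mb had a median log2 fold change of 0.49 in this comparison, and after subtracting it they were 1.17 and 1.12 (adjusted p = 0.00586 and 0.0124).

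DUSP2, an inducible nuclear phosphatase best known from lymphocytes, had few regions and moved in different directions. In PC9 the region 3.0 kb upstream fell from 18.1, 17.2 and 19.3 to 14.3, 10.3 and 11.8 CPM (log2 fold change -0.58 ± 0.15, adjusted p = 0.00118, and 0.0935 with libraries summed), and it did not pass in H1975 (log2 fold change -0.10 ± 0.14). In HCC2935 the region over the start rose from 6.99, 5.91 and 5.95 to 9.31, 14.1 and 11.6 CPM (log2 fold change 0.88 ± 0.23, adjusted p = 0.00178), whereas its log2 fold change was -0.21 ± 0.14 in PC9 and 0.14 ± 0.14 in H1975, neither past the threshold. Differences between lines passed for both regions (joint adjusted p = 0.0242 and 0.00399).

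DUSP10 and DUSP16 encode phosphatases of JNK and p38. The DUSP10 promoter held 48.3, 46.6 and 51.8 CPM in PC9 control and 49.6, 47.4 and 52.3 in DTP libraries, overlapping groups (log2 fold change 0.02 ± 0.09, adjusted p = 0.868). In H1975 it fell from 59.8, 60 and 51.4 to 38.5, 40.8 and 43.5 CPM (log2 fold change -0.47 ± 0.07, adjusted p = 1.21e-09, and 0.0554 with libraries summed). In HCC2935 the change of -0.15 ± 0.10 did not pass (adjusted p = 0.239), and the lines differed (joint adjusted p = 0.000549). HCC2935 lost a region 9.6 kb downstream of a DUSP10 start, annotated as 3′ UTR, from 14.2, 16.2 and 12.2 to 0.760, 1.49 and 2.48 CPM (log2 fold change -3.16 ± 0.30, adjusted p = 2.19e-11). PC9 gained one 35.1 kb downstream, from 1.91, 2.28 and 4.22 to 9.72, 10.1 and 7.51 CPM (log2 fold change 1.65 ± 0.26, adjusted p = 1.89e-08).

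The DUSP16 promoter was higher in PC9 DTP cells, 53.2, 57.5 and 59.1 against 46.7, 46.4 and 48.6 CPM (log2 fold change 0.26 ± 0.08, adjusted p = 0.00941, and 0.496 with libraries summed). It passed in no other line, with log2 fold changes of 0.02 (H1975), 0.22 (HCC827) and 0.19 (HCC2935). A distal region 20 kb upstream fell in PC9 from 46.7, 46.1 and 47.9 to 32.1, 30.2 and 33.0 CPM (log2 fold change -0.56 ± 0.10, adjusted p = 1.55e-07, and 0.0613 with libraries summed). In HCC2935 it was called higher (log2 fold change 0.50 ± 0.19, not called with libraries summed), but the surrounding 10 Mb had a median of 0.45 and the change was 0.07 after subtracting it (adjusted p = 0.821). PC9 also changed inside and beyond the gene. A region in an intron of BORCS5, 56.1 kb downstream of an alternative DUSP16 start, fell from 7.63, 11.9 and 13.1 to 4.37, 3.09 and 3.75 CPM (log2 fold change -1.56 ± 0.23, adjusted p = 1.46e-09). One in the first DUSP16 intron rose from 3.18, 4.06 and 3.22 to 7.53, 6.96 and 5.76 (log2 fold change 0.94 ± 0.27, adjusted p = 0.0032).

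**Figure D4:**
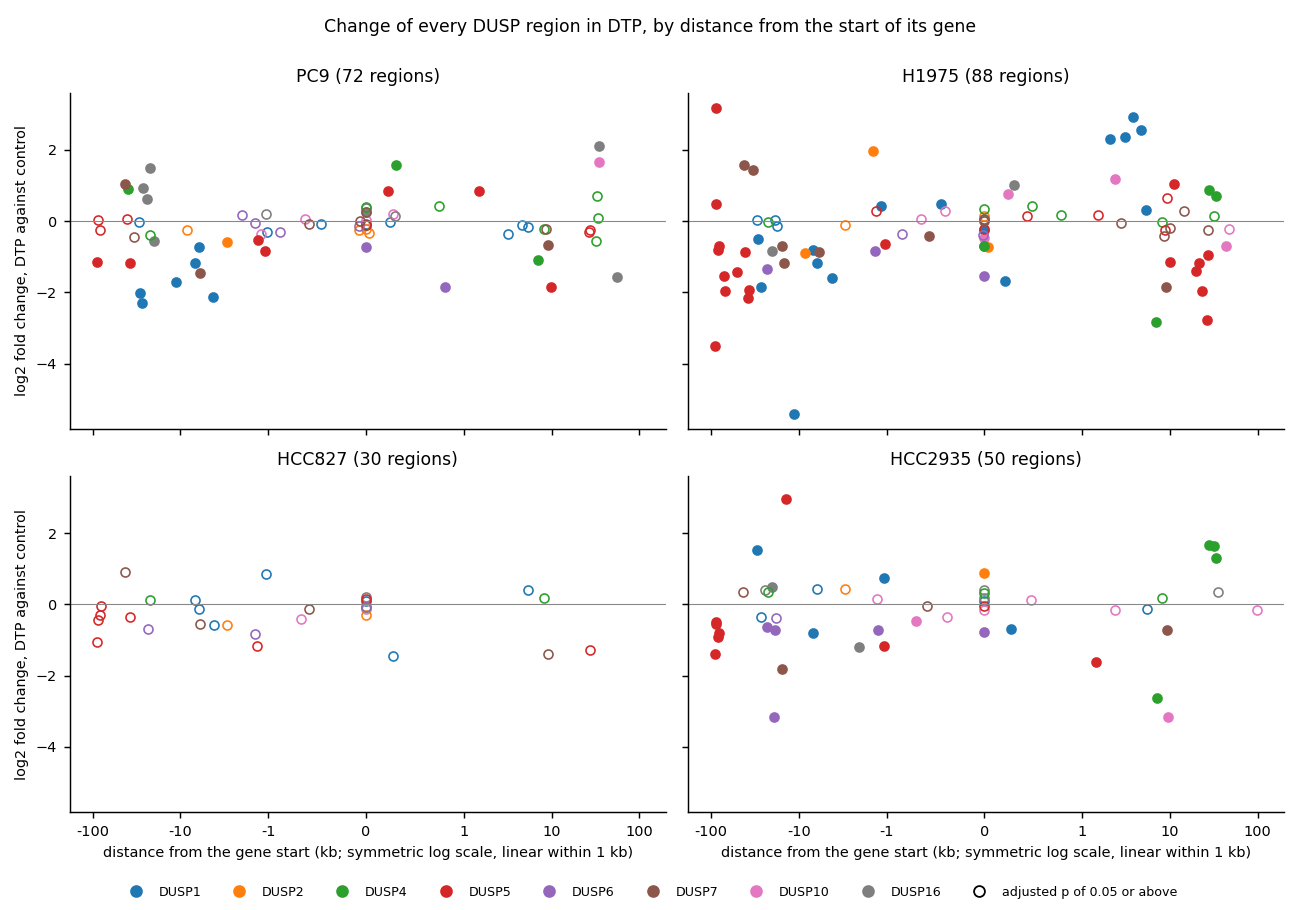
Log2 fold change of DTP against control for every DUSP region by its distance in kb from the gene start given in the annotation, which can be an alternative start. There is one panel per cell line (symmetric log axis, linear within 1 kb), and filled points passed an adjusted p of 0.05. In H1975 values run from -5.41 (11.3 kb upstream of DUSP1) to 3.18 (86.5 kb upstream of DUSP5), and no point is filled in HCC827.

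Across lines, 56 DUSP loci were tested in PC9, H1975 and HCC2935. Of these, 8 were lower in DTP cells in all 3 lines, none was higher in all 3, 5 were called in opposite directions in a pair of lines, and 8 were called in none. Matching counts over all loci are not given, so nothing particular to the set is read from these counts. The 8 shared losses were the DUSP6 promoter, the DUSP1 regions 6.9 and 28.9 kb upstream, the first intron of DUSP4, the DUSP7 region 9.1 to 9.2 kb downstream, and 3 DUSP5 regions (89.2 to 89.4 kb upstream, 36.9 to 37.1 kb upstream and 1.0 to 1.1 kb upstream of a second start). Of 65 DUSP regions matched between these lines, 41 changed by different amounts in the 3 lines, against 43.8% of all matched regions, annotated or not. With HCC827 added the count was 37 of 62, against 37.2%. The DUSP regions come from the annotated subset and the matched regions as a whole do not, so these shares are of unlike sets. Nothing particular to the DUSP regions is read from them. Among the shared losses no difference between lines was detected for the DUSP1 region 6.9 kb upstream (joint adjusted p = 0.647) or for the DUSP5 regions 36.9 to 37.1 kb upstream and next to the second start (0.175 and 0.127).

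Summed over all regions of a gene, 5 of 8 members were lower in PC9 and none higher. Of all 19229 genes tested there, 4373 were lower and 3741 higher (42.2% called in either direction). In H1975 4 members were lower and none higher, where 6764 of 19360 genes were lower and 6607 higher (69.1%). HCC2935 had 3 lower and 3 higher (50.4%), and HCC827 had none called (2.43%) without the replicate block and 2 with it (10.3%). DUSP5 and DUSP6 were the members lower in PC9, H1975 and HCC2935. DUSP5 changed by -0.32 ± 0.05 in PC9, -0.66 ± 0.03 in H1975 and -0.76 ± 0.08 in HCC2935 on the log2 scale (adjusted p = 4.55e-09, 2.66e-37 and 2.03e-08). In HCC827 these were also the 2 sums called with the block, at -0.52 (DUSP5, adjusted p = 0.00977) and -0.46 (DUSP6, adjusted p = 0.0271). DUSP1 was lower in PC9 (-0.38 ± 0.04) and, by a smaller amount, in H1975 (-0.14 ± 0.03). DUSP2, DUSP4 and DUSP16 were higher in HCC2935, by 0.63 ± 0.16, 0.39 ± 0.10 and 0.19 ± 0.08 (adjusted p = 0.00185, 0.00135 and 0.0493), and DUSP10 was lower there by -0.42 ± 0.07. The surrounding 10 Mb in HCC2935 had median log2 fold changes of 0.12 (DUSP2), 0.49 (DUSP4) and 0.45 (DUSP16), so the DUSP4 and DUSP16 sums rose by less than their surroundings.

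**Figure D5:**
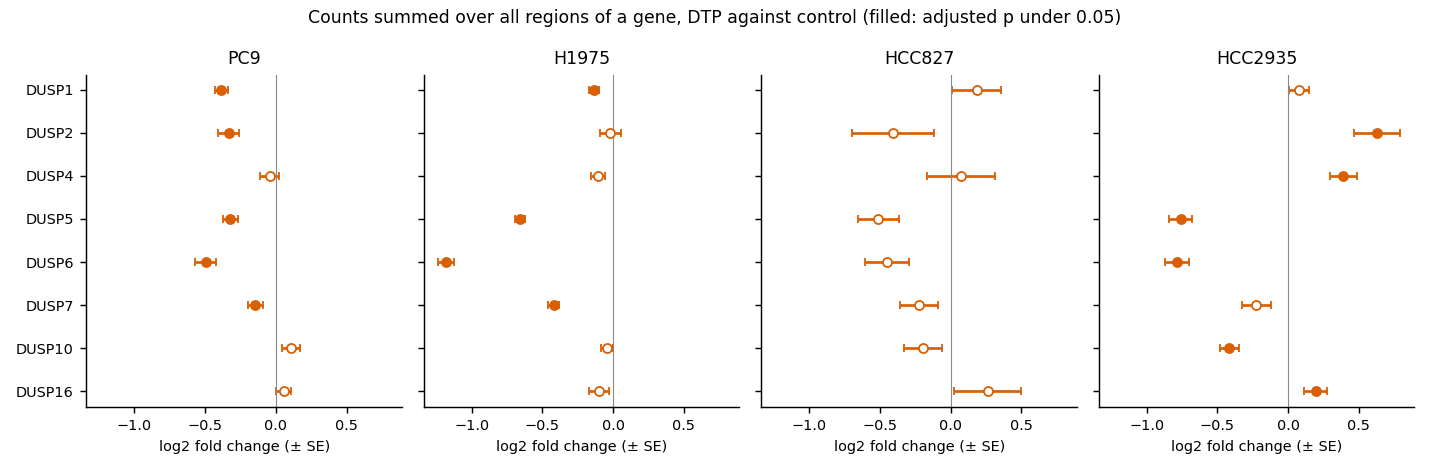
Log2 fold change of DTP against control (± SE) in the counts summed over all regions of each DUSP gene, by cell line, with filled points where the adjusted p was under 0.05. DUSP6 lies at -0.49 in PC9, -1.18 in H1975 and -0.78 in HCC2935, and the HCC827 errors are the widest.

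Comparing combo with DTP cells asks what changed when cells already tolerant of osimertinib were given 3 days of AZD5153. As the labels do not say whether osimertinib stayed on, a possible withdrawal of it cannot be told apart from AZD5153 here. The DUSP10 promoter rose and the DUSP6 promoter fell further in PC9 and H1975. Lead promoters of all genes also rose more often than they fell, 23.5% higher and 8.0% lower in PC9 and 36.8% and 5.61% in H1975. Their median log2 fold changes were 0.14 and 0.20, so promoter rises here are not read as particular to the set. In PC9 18 of 72 DUSP regions were called, 8 higher and 10 lower, against 29.2% of annotated regions (15.5% higher, 13.7% lower). In H1975 37 of 88 were called, 26 higher and 11 lower, against 32.6% (22.0% higher, 10.6% lower). In HCC2935 7 of 50 were called, 4 higher and 3 lower, against 12.9% (3.28% higher, 9.59% lower). That count was 4 without DTP replicate 1, 1 without DTP replicate 2, 2 without DTP replicate 3, 3 without combo replicate 2 and 1 under DESeq2. HCC827 had none of 30 (0.0% of annotated regions), with 0 at an unadjusted p under 0.05 and 0 under DESeq2. With libraries summed 5 PC9 regions (9.23% of annotated regions), 8 H1975 regions (6.65%) and 2 HCC2935 regions (7.06%) were called. Groups did not overlap at 27 PC9 regions (41.9% of annotated regions), 48 H1975 regions (44.8%), 19 HCC2935 regions (34.2%) and 2 HCC827 regions (9.02%).

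The DUSP10 promoter held 67.8, 66.6 and 67.1 CPM in PC9 combo libraries, above its DTP values of 49.6, 47.4 and 52.3 (log2 fold change 0.43 ± 0.08, adjusted p = 1.99e-06). In H1975 it held 52.9, 47.3 and 52.5 against 38.5, 40.8 and 43.5 CPM (log2 fold change 0.31 ± 0.07, adjusted p = 0.000288). The neighbouring region 0.6 to 0.7 kb upstream rose in PC9, H1975 and HCC2935, by 0.54 ± 0.12, 0.29 ± 0.08 and 0.38 ± 0.12 on the log2 scale (adjusted p = 8.39e-05, 0.00453 and 0.03). The DUSP6 promoter fell to 22.2, 15.1 and 17.6 CPM in PC9 combo cells (log2 fold change -0.52 ± 0.13, adjusted p = 0.00058). In H1975 it fell to 6.95, 5.36 and 8.11 CPM (log2 fold change -0.62 ± 0.15, adjusted p = 0.000471), below every DTP library. None of these DUSP10 rises and DUSP6 falls passed with libraries summed. The HCC2935 values of 22.5, 17.7 and 13.3 and the HCC827 values of 20.9, 32.7 and 40.8 did not pass. The region 23.2 kb upstream of DUSP6 stayed near its DTP level in H1975, at 26.0, 23.4 and 26.3 CPM (log2 fold change 0.09 ± 0.09, adjusted p = 0.51).

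DUSP5 moved in both directions in the same comparison, with 2 of 13 regions higher and 3 lower in PC9. Its PC9 promoter rose from 12.6, 12.9 and 14.3 to 16.8, 18.6 and 17.8 CPM (log2 fold change 0.42 ± 0.15, adjusted p = 0.031, and 0.338 with libraries summed). In PC9 the regions 89.4 and 82.8 kb upstream fell further, to 7.07, 5.30 and 7.46 CPM (log2 fold change -0.88 ± 0.20, adjusted p = 0.000199) and from 27.0, 25.8 and 24.0 to 16.1, 15.9 and 10.9 CPM (log2 fold change -0.83 ± 0.14, adjusted p = 9.04e-08). In H1975 14 of the 25 DUSP5 regions rose and 3 fell. The 3′ UTR region 8.8 kb downstream of the second start went from 1.15, 1.13 and 1.34 to 3.80, 3.37 and 4.62 CPM (log2 fold change 1.69 ± 0.27, adjusted p = 2.05e-07). The one 9.3 kb downstream of that start went from 2.43, 1.93 and 2.57 to 5.90, 5.11 and 5.29 (log2 fold change 1.23 ± 0.22, adjusted p = 2.14e-06). The lowest was 23.1 kb downstream of it, from 2.43, 2.61 and 3.36 to 1.05, 0.873 and 1.35 (log2 fold change -1.34 ± 0.31, adjusted p = 0.0003). These are low levels beside the promoter.

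Among the nuclear members, the DUSP1 promoter rose in H1975 to 33.3, 30.0 and 28.5 CPM (log2 fold change 0.40 ± 0.09, adjusted p = 0.000122) and in PC9 to 35.6, 43.0 and 36.8 (log2 fold change 0.30 ± 0.10, adjusted p = 0.0179), and neither rise passed with libraries summed. The DUSP1 region 2.1 kb downstream rose in H1975 from 1.79, 1.59 and 1.68 to 5.64, 3.99 and 4.17 CPM (log2 fold change 1.43 ± 0.25, adjusted p = 1.47e-06), while in PC9 the region 3.2 kb downstream fell from 5.10, 5.67 and 6.51 to 2.68, 2.92 and 2.66 (log2 fold change -1.06 ± 0.30, adjusted p = 0.00374). A DUSP4 promoter region rose in PC9 from 5.83, 3.87 and 4.50 to 9.02, 7.42 and 8.52 CPM (log2 fold change 0.81 ± 0.23, adjusted p = 0.00556, and 0.0872 with libraries summed). In H1975 the DUSP4 region 31.6 kb downstream fell from 4.35, 6.01 and 4.25 to 2.10, 1.99 and 1.80 (log2 fold change -1.31 ± 0.24, adjusted p = 3.48e-06), and the DUSP7 region 14.6 kb downstream from 3.33, 2.61 and 2.91 to 1.05, 1.62 and 1.13 (log2 fold change -1.20 ± 0.29, adjusted p = 0.000851). HCC2935 returned the DUSP2 start region from 9.31, 14.1 and 11.6 to 7.62, 7.06 and 5.64 CPM (log2 fold change -0.78 ± 0.20, adjusted p = 0.00987), and its control libraries had held 6.99, 5.91 and 5.95. It lost the DUSP5 region 80.1 kb upstream (-0.85 ± 0.28) and the 3′ UTR region of DUSP16 (9.50, 9.26 and 8.01 to 2.60, 3.17 and 5.64 CPM, log2 fold change -1.26 ± 0.25, adjusted p = 0.000618). Its DUSP16 promoter rose from 25.6, 22.3 and 20 to 28.1, 35.3 and 28.0 CPM (log2 fold change 0.44 ± 0.13, adjusted p = 0.0286). Of these 4 HCC2935 changes, the one in the DUSP16 3′ UTR passed with libraries summed.

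AZD5153 given to untreated PC9 and H1975 cells asks what the inhibitor does without prior osimertinib, and uses the same control libraries as the DTP comparison. In PC9 25 of 72 DUSP regions were called, 9 higher and 16 lower, against 32.4% of annotated regions (14.3% higher, 18.2% lower). In H1975 69 of 88 were called, 42 higher and 27 lower, against 72.2% (29.0% higher, 43.2% lower). With libraries summed the counts were 15 (16.0%) and 50 (55.7%), and groups did not overlap at 31 PC9 regions (43.5% of annotated regions) and 75 H1975 regions (74.0%). In H1975 21 of 34 DUSP promoter regions were higher, against 39.9% of annotated promoter regions. Of the 42 higher regions in H1975, 22 had a control mean under 3 CPM (52.4%), beside 33.0% of annotated regions called higher.

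The DUSP6 promoter was lower in both lines. It held 31.1, 33.4 and 34.0 CPM in PC9 under AZD5153 (log2 fold change -0.41 ± 0.10, adjusted p = 0.000283, and 0.276 with libraries summed) and 23.0, 17.8 and 22.1 CPM in H1975 (log2 fold change -0.53 ± 0.09, adjusted p = 3.61e-07). The surrounding 10 Mb in H1975 had a median log2 fold change of -0.54, and the promoter change was -0.07 after subtracting it (adjusted p = 0.554). The region 23.2 kb upstream held 11.5, 11.7 and 11.6 CPM in H1975, below the DTP and combo libraries as well as the control libraries (log2 fold change -2.39 ± 0.09, adjusted p = 5.06e-68, and -1.93 after subtracting the regional median). DUSP16, directed at JNK and p38, fell as well. Its region 20 kb upstream fell to 20.3, 20.4 and 22.0 CPM in PC9 (log2 fold change -1.16 ± 0.10, adjusted p = 2.34e-24) and to 1.55, 1.39 and 1.37 in H1975 (log2 fold change -2.91 ± 0.22, adjusted p = 3.93e-29). The DUSP16 intron region 27.0 kb upstream of a start fell in PC9 to 0.239, 1.86 and 1.88 CPM (log2 fold change -1.37 ± 0.39, adjusted p = 0.0037), the opposite of its rise in DTP cells.

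In H1975 the lead promoters of DUSP1, DUSP2, DUSP4 and DUSP5 were called higher under AZD5153, 4 of 8, and 2 were lower. Among lead promoters of all genes 39.1% were higher and 28.3% lower, so a gain particular to these nuclear members is not read from this. The DUSP2 region 2.9 kb upstream held 29.3, 23.0 and 29.1 CPM under AZD5153 against 10.7, 11.6 and 9.44 in control (log2 fold change 1.38 ± 0.11, adjusted p = 8.94e-26). The lead promoters of DUSP4 and DUSP5 rose by 0.52 ± 0.12 and 0.32 ± 0.10 on the log2 scale (adjusted p = 4.97e-05 and 0.00223, and 0.0663 and 0.262 with libraries summed). The DUSP1 promoter rose by 0.22 ± 0.09 (adjusted p = 0.0257, and 0.476 with libraries summed), a rise smaller than the regional median of 0.29 and one that turned to -0.06 after subtracting it. The 3 regions with the largest rises lay downstream of the DUSP1 start. The one at 2.1 kb went from 0.619, 0.269 and 0.135 to 6.06, 4.53 and 3.42 CPM, the one at 3.1 kb from 1.24, 0.269 and 0.809 to 6.97, 9.06 and 7.53, and the one at 3.8 kb from 0.619, 0.269 and 0.539 to 4.26, 3.83 and 4.45. The first had 7 counts in control and 103 under AZD5153, a ratio of 14.1 with a counting interval of 6.60 to 35.9. The DUSP1 region 11.3 kb upstream fell to 3.10, 1.05 and 1.48 CPM (log2 fold change -2.66 ± 0.20, adjusted p = 3.3e-28) and the DUSP4 region 31.6 kb downstream from 4.33, 4.57 and 4.31 to 0, 0.523 and 0.570 CPM (0, 3 and 5 counts, log2 fold change -3.56 ± 0.38, adjusted p = 1.39e-16).

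In PC9 the lead promoters of DUSP1, DUSP2, DUSP4 and DUSP5 were not called under AZD5153. Among lead promoters of all genes 8.81% were higher and 14.4% lower there. The PC9 changes that follow are at other regions. The DUSP2 start region fell from 20.3, 20 and 16.1 to 9.09, 9.97 and 10.1 CPM (log2 fold change -0.94 ± 0.16, adjusted p = 1.49e-07). The DUSP1 region 6.9 kb upstream rose from 10.2, 10.6 and 12.6 to 19.1, 21.8 and 22.8 CPM (log2 fold change 0.92 ± 0.15, adjusted p = 5.2e-08), whereas it was lower in DTP cells. A DUSP4 promoter region rose from 4.13, 3.80 and 2.98 to 5.50, 8.12 and 5.16 (log2 fold change 0.80 ± 0.27, adjusted p = 0.0167, and 0.0994 with libraries summed). The DUSP7 region in POC1A rose to 23.7, 22.3 and 20.6 CPM (log2 fold change 1.00 ± 0.15, adjusted p = 1.58e-09), close to the values in DTP libraries. The difference between PC9 and H1975 in the response to AZD5153 was not tested.

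The interaction, the change from DTP to combo minus the change under AZD5153 in untreated cells, tests whether these 2 changes differed. A possible withdrawal of osimertinib in combo cells enters the first change alone and cannot be told apart from AZD5153. In PC9 10 of 72 DUSP regions passed, 6 with a positive and 4 with a negative value, against 18.9% of annotated regions (10.8% positive, 8.1% negative). In H1975 58 of 88 passed, 28 positive and 30 negative, against 59.8% (40.0% positive, 19.8% negative). With libraries summed the counts were 1 (5.82%) and 39 (40.3%). The DUSP10 promoter was positive in both lines, 0.45 ± 0.12 in PC9 and 0.39 ± 0.10 in H1975 (adjusted p = 0.00183 and 0.000451, and 0.547 and 0.312 with libraries summed). Over lead promoters of all genes the median interaction was 0.15 in PC9 and 0.08 in H1975. The DUSP10 promoter rose from DTP to combo, and in untreated cells AZD5153 left it at -0.02 ± 0.08 and -0.08 ± 0.07, neither past the threshold. The DUSP6 promoter did not pass in either line (-0.12 ± 0.16 and -0.10 ± 0.17). The region 23.2 kb upstream of DUSP6 had an interaction of 2.48 ± 0.13 in H1975 (adjusted p = 3.66e-46). It fell under AZD5153 in untreated cells, and its change from DTP to combo did not pass.

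Among H1975 promoters the DUSP2 region 2.9 kb upstream had a negative interaction, -1.62 ± 0.18, as did the DUSP4 promoter, -0.93 ± 0.20 (adjusted p = 3.29e-15 and 3.28e-05). The DUSP2 region held 29.3, 23.0 and 29.1 CPM under AZD5153 alone and 9.05, 7.36 and 8.56 in combo libraries, beside 8.32, 11.6 and 9.40 in DTP. A second DUSP2 region, 1.4 kb upstream, went from 0.464, 1.35 and 0.404 CPM in control to 7.10, 4.70 and 4.91 under AZD5153 and held 3.07, 3.18 and 2.80 in DTP and 1.57, 2.37 and 2.93 in combo (interaction -3.25 ± 0.42). At a second DUSP16 start the order was the reverse, with 7.11, 7.94 and 5.66 CPM in control, 1.94, 0.871 and 1.14 under AZD5153, 5.12, 4.20 and 3.47 in DTP and 4.20, 4.61 and 4.84 in combo (interaction 2.45 ± 0.33). The DUSP5 region 86.5 kb upstream, so open in H1975 DTP cells, held 7.87, 8.71 and 8.67 CPM under AZD5153 and 9.97, 9.85 and 10.1 in combo (interaction -2.93 ± 0.29).

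Summed over all regions of a gene, DUSP10 rose from DTP to combo in PC9 (0.31 ± 0.06), H1975 (0.13 ± 0.04) and HCC2935 (0.25 ± 0.06) on the log2 scale (adjusted p = 2.81e-06, 0.0135 and 0.00768). DUSP2 fell in the same 3 lines, by -0.43 ± 0.08, -0.54 ± 0.08 and -0.70 ± 0.15 (adjusted p = 6.79e-06, 1.55e-08 and 0.00132). DUSP6 fell in PC9 (-0.48 ± 0.08) and H1975 (-0.20 ± 0.07). Of all genes, 33.1%, 39.1% and 15.2% were called in these lines. Under AZD5153 alone DUSP2 was higher in H1975 (0.80 ± 0.07) and lower in PC9 (-0.34 ± 0.07), and DUSP16 was lower in both (-0.58 ± 0.08 and -0.42 ± 0.05). The DUSP6 sum was lower in H1975 (-0.84 ± 0.05), and in PC9 its value of -0.07 ± 0.07 did not pass (adjusted p = 0.482), with 78.2% and 35.2% of all genes called.

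Other genes of the pathway were read at their lead promoters from gene lists drawn up with earlier results of these data known. Of 13 other ERK output genes tested in each line, DTP cells had 0 higher and 6 lower in PC9 (13.4% and 12.6% of all genes), 1 higher and 5 lower in H1975 (19.5% and 29.1%), and 1 higher and 9 lower in HCC2935 (22.3% and 11.5%). Their median log2 fold changes were -0.21, -0.16 and -0.50, beside 0.02, -0.04 and 0.12 over all genes, and none of the 11 tested in HCC827 passed. The ERK feedback inhibitor SPRY4 was lower in PC9 (-0.84) and H1975 (-0.77), and SPRED2, another inhibitor of the cascade, in PC9 (-0.50), H1975 (-0.45) and HCC2935 (-0.50). The receptor gene EPHA2 was lower in PC9 (-0.58) and H1975 (-0.69), and SPRY2 in H1975 (-0.53) and HCC2935 (-0.70). The transcription factor gene FOS was lower in PC9 (-0.21) and HCC2935 (-0.65) and higher in H1975 (0.41), and EGR1 was the gene called higher in HCC2935 (0.32).

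Kinases of the cascade itself were counted against the same shares of all genes. Of 11, 10 and 10 genes of the ERK cascade tested in PC9, H1975 and HCC2935, 0, 1 and 3 were higher and 2, 4 and 0 lower. Of 11, 10 and 11 JNK and p38 kinases and their activators, 2, 1 and 2 were higher and 1, 2 and 1 lower. Of 9, 10 and 8 other DUSP genes, 3, 2 and 3 were higher and 0, 3 and 0 lower. None of these genes passed in HCC827, where no lead promoter of any gene did.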

How the data were processed

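ATAC-seq, which maps open chromatin with a transposase, was analysed in 42 libraries. The extraction protocol of the labels describes an H3K27ac ChIP-seq, while titles and file names give ATAC-seq, and the data were read as ATAC-seq. The submitters' processing notes name BWA 0.7.17, SAMtools 1.9, deepTools 3.4, MACS2 2.2.6, featureCounts 2.0.0, ChIPseeker 1.29.1 and hg38, with no order or settings. The authors deposited, for each line, raw counts of reads per region of 502 bases, in a table of all regions and an annotated subset that gives the gene symbol. The authors also deposited peaks per library, with fold enrichment and −log10 q values, which were used for overlap alone. The genes and lists were chosen with earlier results of these data known. 1 gene of the marker list for other cell types is not reported here.

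Within each line, counts of all regions were filtered with filterByExpr, normalised by TMM and tested with edgeR 4.0.16 (R 4.3.3) by the quasi-likelihood test, with Benjamini-Hochberg adjustment over all regions tested in the line and a threshold of 0.05. All arms of a line shared 1 fit. Matched regions (50% overlap) of PC9, H1975 and HCC2935 entered a joint fit for the difference between lines, and counts were also summed over the regions of each gene. DESeq2 1.42.0 and limma 3.58.1 (voom) were alternatives, as were size factors of DESeq2, library size only, no filter, a mean of at least 50 counts, annotated regions only, regional medians over 10 Mb bins of at least 50 regions, summed libraries, and leaving out each replicate. The edgeR step was tested on simulated data for DTP against control. For single regions it recovered 67.2% (PC9), 83.6% (H1975), 40.3% (HCC2935) and 0% (HCC827) of 2-fold changes. Of 4-fold changes it recovered 22.7% in HCC827, so regions not called in that line may still have changed.

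Replicate numbers were checked as pairs. Correlations of same-numbered libraries' deviations from their group means were 0.254 to 0.818 in HCC827, against -0.00978 to 0.0126 (PC9), -0.0648 to 0.0162 (H1975) and -0.0761 to 0.210 (HCC2935). The number was therefore also used as a block in HCC827. Replicate 3 departed from the others in every HCC827 group (variance ratios 4.25 to 9.23, against 1.19 to 1.88 between replicates 1 and 2). Pairing was not tested apart from this departure. Named regions were, per comparison, the 3 highest and 3 lowest called DUSP regions whose groups did not overlap and whose mean was above the median of all tested regions of the line. Every gene's lead promoter and the highest region outside promoters were named too. Regions present in several lines, and others described for their place beside these, were chosen after their values were seen. Depth limits weak regions, and counting intervals (95%) cover counting error only.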

Additional observations from a re-analysis of the deposited data

Results flagged for a closer look

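Results are listed here because the effect of AZD5153 differed between DTP and untreated cells, or the effect of DTP differed between PC9, H1975 and HCC2935, by a test of that difference (adjusted p under 0.05). Interactions are log2 values, the AZD5153 change in DTP cells minus that in untreated cells.

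In H1975 the interaction was positive at the DUSP10 promoter (0.39), the DUSP16 promoter (0.53), the DUSP7 promoter (0.25), a second DUSP16 start (2.45), the DUSP1 region 11.3 kb upstream (3.06) and the DUSP6 region 23.2 kb upstream (2.48). It was negative at the DUSP2 promoter region 2.9 kb upstream (-1.62), the DUSP2 region 1.4 kb upstream (-3.25), the DUSP4 promoter (-0.93), the DUSP1 region 3.1 kb downstream (-2.84) and the DUSP5 region 86.5 kb upstream (-2.93). The surrounding 10 Mb moved too, with median interactions of -0.34 (DUSP1), 0.45 (DUSP6) and -0.39 (DUSP7). After regional medians were subtracted, 54 H1975 DUSP regions passed, 25 positive and 29 negative. The share of annotated regions under that fit is not given, so nothing particular to the set is read from this count. The sign of the DUSP7 value turned under 2 alternatives.

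In PC9 it was positive at the DUSP10 promoter (0.45), the DUSP16 region in an intron of BORCS5 (1.04), the first intron of DUSP16 (1.52) and the DUSP4 region 31.7 kb downstream (1.12). It was negative at the DUSP5 region 82.8 kb upstream (-0.78), the DUSP6 promoter region 1.4 kb upstream (-0.98) and the DUSP7 region in an intron of POC1A (-1.16). With libraries summed, 1 PC9 DUSP region passed.

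The change in DTP cells differed between lines at the promoters of DUSP6 (adjusted p = 9.32e-06), DUSP10 (0.000549) and DUSP7 (0.0259) and at the DUSP2 regions over the start (0.00399) and 2.9 to 3.0 kb upstream (0.0242). Their log2 fold changes in PC9, H1975 and HCC2935 stand in the report.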

How the results depend on the processing

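Counts of DUSP regions called depended on the filter, the tool and the replicate spread. With no filter, 5 were called in the PC9 interaction (10 in the reported fit) and 1 in HCC2935 combo against DTP (7). With a mean of at least 50 counts, which tests fewer regions, PC9 had 9 for DTP, 8 for combo, 8 for AZD5153 and 3 for the interaction, H1975 had 27, 21, 31 and 26, and HCC2935 had 11 and 3. DESeq2 gave 10 in PC9 combo against DTP, 4 in the PC9 interaction and 1 in HCC2935 combo against DTP. Summed libraries gave 5, 15 and 1 in PC9 (combo, AZD5153, interaction), 8 in H1975 combo, 7 in HCC827 DTP against control (with a spread too small for that line) and 2 in HCC2935 combo. With annotated regions only, HCC827 DTP against control had 1. With the replicate block, HCC827 DTP against control had 4 regions and 2 gene sums (0 without it), and the block changed no other count by over 1.5 times, while the HCC2935 DUSP16 gene sum lost its call (adjusted p = 0.0513) and its DUSP6 sum from DTP to combo gained one (0.0434). The cause of these shifts was not tested apart from the number of regions or libraries entering. Leaving out 1 replicate gave 25 to 29 (PC9), 55 to 58 (H1975), 23 to 27 (HCC2935) and 0 (HCC827) for DTP against control, 13 to 17, 29 to 36, 1 to 6 and 0 for combo against DTP, 19 to 25 (PC9) and 62 to 66 (H1975) for AZD5153 against control, 8 to 11 and 53 to 59 for the interaction, 37 to 44 for the joint fit, and 4 to 5 (PC9), 4 to 5 (H1975), 5 to 6 (HCC2935) and 0 (HCC827) for the gene sums of DTP against control. Values turned sign for the H1975 DUSP1 promoter under AZD5153, -0.062 with regional medians removed, and for the H1975 DUSP7 promoter interaction, -0.063 with library size only and -0.045 with a mean of at least 50 counts. Of 1492 values of 89 named results, 1343 kept direction and side of the threshold, 146 kept direction and lost the threshold (34 of them with summed libraries) and 3 reversed. Replicates of PC9 spread no more than counting noise and those of H1975 little more (variance ratio up to 1.27), so their p-values may measure technical spread alone.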

Other observations

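Over the 14 group means, taken as log2(CPM + 0.5) and centred within each line, the lead promoters whose profile was most like that of a DUSP promoter were, of 9902 genes with a promoter region in every line, ADAM10 for DUSP1 (Pearson r = 0.963), ITGA1 for DUSP2 (0.918), KCNC4-DT for DUSP4 (0.969), MRPL38 for DUSP5 (0.917), MFSD2B for DUSP6 (0.920), BRI3BP for DUSP7 (0.930), PIGS for DUSP10 (0.951) and PIGM for DUSP16 (0.955). Next came ATP5IF1 (0.960), SYT14 (0.896), BCL3 (0.941), LINC02585 (0.874), ITPR3 (0.908), THG1L (0.920), KDM3A (0.951) and WDR75 (0.944). The groups share cell lines and libraries, and the highest of many values is high by selection, so these are descriptions of likeness.

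Low starting levels were common among regions called higher. In H1975 DTP cells 11 of 18 DUSP regions called higher had a control mean under 3 CPM (61.1%, beside 41.0% of annotated regions called higher), in PC9 6 of 11 (54.5%, beside 37.3%) and in HCC2935 4 of 8 (50%, beside 39.4%). From DTP to combo in H1975, 7 of 26 started under 3 CPM (26.9%, beside 9.31%).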
